A study of Mus musculus with 8 samples.

Results

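The transcript makeup of control brown fat at baseline was described from the 4 libraries titled WT, of 8 libraries in the series. The libraries were chosen by their titles alone, and the results come from no test between groups. They hold polyadenylated RNA of brown fat from 20-week-old C57BL/6N mice fed chow, sequenced in pairs of reads. WT replicates 1 to 3 carry the genotype Adcy3-FL/FL/Adipoq-wt/wt, that is, 2 floxed copies of Adcy3 and no Cre at the adiponectin gene. WT replicate 4 is titled WT, but its genotype entry reads Adcy3-FL/FL/Adipoq-wt/cre, the entry of the knockout libraries, so key values are also given without it. The floxed Adcy3 alleles are shared by every mouse of the series, so that none of these libraries comes from mice with an unmodified Adcy3 gene. The Adipoq promoter drives Cre in adipocytes of all depots. The tissue is interscapular by the sample labels but inguinal by the design text. The sample labels were used. The labels do not say that each library comes from a separate animal, and the spread between libraries may therefore be technical in part.

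Brown adipocytes are packed with mitochondria and small lipid droplets and turn fuel into heat. Noradrenaline from sympathetic nerves acts on beta-adrenergic receptors, adenylyl cyclases then make cyclic AMP, and protein kinase A sets off the breakdown of stored triglyceride. The fatty acids released feed oxidation and activate the uncoupling protein Ucp1, which lets protons back across the inner mitochondrial membrane without making ATP. The tissue also takes up glucose and builds new fatty acids, a pathway known to be active in brown fat beside oxidation.

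The totals were 32.4, 13.4, 18.4 and 13.0 times 1000000 estimated counts in WT replicates 1 to 4, and values per library are given in this order throughout. CPM stands for estimated counts per 1000000 of a library's total, errors after ± are SDs over the 4 libraries, and a share is a percentage of all estimated counts. Long transcripts give more counts, so genes were compared with each other per length, as TPM computed here. For this the counts were divided by the length of all annotated exons together and scaled to a sum of 1000000 per library. A library with 0 counts of a gene allows a level of up to 0.0925, 0.224, 0.163 and 0.231 CPM in WT replicates 1 to 4, from a floor of 3 counts that covers counting error only. Some libraries stood apart. WT replicate 4 carried the most skeletal muscle transcripts, and WT replicate 3 had more counts from short transcripts and fewer from long ones than the other libraries, as the values below show.

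The 5 marker genes of brown adipocytes were abundant in every library. Ucp1 (ENSMUSG00000031710, chr8:83290352-83298452, + strand, GRCm38) had 2214, 2651, 3291 and 2556 CPM. Cidea, which enlarges lipid droplets by fusing them, had 1404, 1423, 1859 and 1260 CPM. Fabp4 (ENSMUSG00000062515, chr3:10204088-10208576, − strand), the fatty acid binding protein of adipocytes, had 6054, 5962, 6967 and 5428 CPM. These 3 genes were highest in WT replicate 3, where Ucp1 was 1.49-fold above its lowest library. Scd1 (ENSMUSG00000037071, chr19:44394455-44407879, − strand), which puts a double bond into saturated fatty acids, had 52285, 65095, 43659 and 47513 CPM. Fasn (ENSMUSG00000025153, chr11:120805846-120824547, − strand), the enzyme that builds palmitate, had 34038, 29172, 21844 and 20881 CPM. Scd1 and Fasn were lower in WT replicates 3 and 4 than in the other libraries. A list of 12 genes known as higher in white than in brown fat had a summed share of 0.0113% ± 0.00108. It does not hold Lep, which had a mean share of 0.00797% by itself. Of the 12, 2 (Tcf21 and Wt1) had 0 counts in all 4 libraries.

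Adcy3, the floxed gene, had 111, 124, 67.5 and 121 CPM. WT replicate 3 was the lowest of the 4 and WT replicate 4, whose genotype entry carries Cre, lay among the others. The Ensembl identifier sums all Adcy3 transcripts, so that the full-length and the truncated form named in the series title are not told apart here.

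The stretch of 250 bases just before the annotated start is shown for 3 genes. Ucp1 defines the tissue, and Fasn and Acly stand for the lipogenic genes, the class with the largest nuclear share of the counts. Of the brown adipocyte markers only Ucp1 and Fasn had a RefSeq window, so Scd1, the most counted nuclear gene, is missing. The sequences are RefSeq's on GRCm38.p6, read 5′ to 3′ on the strand of the gene, at chr8:83290098-83290347 (+ strand) for Ucp1, chr11:120824548-120824797 (− strand) for Fasn and chr11:100528001-100528250 (− strand) for Acly. Capitals mark every match to 6 motifs searched on both strands. These were the CCAAT box, the GC box GGGCGG, the E-box CACGTG, the TATA box TATAAA, the core TGACG of cyclic AMP response elements and the core TCACCCCAC of a sterol regulatory element.
Ucp1: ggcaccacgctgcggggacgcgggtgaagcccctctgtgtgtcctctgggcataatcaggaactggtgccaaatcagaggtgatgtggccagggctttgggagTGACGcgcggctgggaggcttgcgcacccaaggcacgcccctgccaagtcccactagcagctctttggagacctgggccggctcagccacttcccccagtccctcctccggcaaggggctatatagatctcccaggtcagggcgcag
Fasn: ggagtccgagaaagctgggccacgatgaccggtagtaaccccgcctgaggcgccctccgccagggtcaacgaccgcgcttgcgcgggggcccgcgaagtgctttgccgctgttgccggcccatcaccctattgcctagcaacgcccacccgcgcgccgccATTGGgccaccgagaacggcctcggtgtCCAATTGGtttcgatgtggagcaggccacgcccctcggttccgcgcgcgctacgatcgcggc
Acly: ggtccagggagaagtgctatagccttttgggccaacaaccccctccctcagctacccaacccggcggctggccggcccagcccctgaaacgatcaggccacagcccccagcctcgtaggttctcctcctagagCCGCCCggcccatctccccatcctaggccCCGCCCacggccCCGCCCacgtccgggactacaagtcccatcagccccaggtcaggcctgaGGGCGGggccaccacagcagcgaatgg
The Ucp1 window held 1 match, TGACG, which begins 147 bases before the start. The Fasn window held 3 matches to CCAAT, on the reverse strand at 90 and 59 bases before the start and on the forward strand at 62, and the last 2 of these overlap. The Acly window held 4 matches to GGGCGG, at 117, 88 and 76 bases before the start on the reverse strand and at 27 on the forward strand. Of all 32851 windows of this length in the RefSeq table, 33.8% held CCAAT, 32.7% GGGCGG, 17.8% TGACG, 12.4% TATAAA, 6.02% CACGTG and 0.496% TCACCCCAC. Of the 43 windows of the 35 genes of fatty acid and triglyceride synthesis that the table holds, 21 held CCAAT (48.8%), 25 held GGGCGG (58.1%) and 5 held CACGTG (11.6%). In the same 43 windows TATAAA was found in 1 (2.33%), TGACG in 6 (14.0%) and TCACCCCAC in 1 (2.33%). These matches describe letters, not binding.

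Counts were concentrated in few genes. Between 13241 and 14010 genes reached 1 CPM in a library, and 12445 did so in all 4, of which 11524 were protein-coding. Without WT replicate 4, 12659 genes did so in the remaining 3. The table lists 54385 genes, and 21929 of them had 0 counts in every library. The most counted 94, 103, 113 and 106 genes held 50% of all counts in WT replicates 1 to 4, and 90% was reached with 3916 to 4315 genes. The 10 most counted genes of a library held 29.6% ± 0.209, a share that was nearly equal in all 4. Only 82 genes averaged 1000 CPM or more, against 1083 between 100 and 1000 CPM and 6981 between 10 and 100 CPM. Of the 100 most counted genes by mean, 79 were among the 100 most counted of each library. Protein-coding genes held 94.4% ± 0.439 of the counts and mitochondrial ribosomal RNA 2.74% ± 0.623. By chromosome, the mitochondrial genome held 26.2% ± 1.48, chromosome 11 (with Fasn and Acly) 8.42% ± 0.684 and chromosome 19 (with Scd1) 7.78% ± 0.896.

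Mitochondrially encoded genes made up 8 of the 10 and 14 of the 25 most counted genes, and Scd1 and Fasn were the other 2 of the first 10. The most counted gene was mt-Co1, the catalytic subunit of cytochrome oxidase, with 55363, 57002, 53298 and 61479 CPM. Scd1 came next with 52138 ± 9330 CPM and was the most counted gene of all in WT replicate 2. Fasn ranked between 3 and 8 with 26484 ± 6250 CPM. Among the first 25, other nuclear protein-coding genes were those of fuel use and lipid handling. Gpd1, which makes glycerol phosphate from a glycolytic intermediate, had 6414 ± 576 CPM. Atp5b, the catalytic beta subunit of ATP synthase, had 4228 ± 172 CPM. Aldoa, a glycolytic aldolase, had 3855 ± 426 CPM, and Tkt, the transketolase of the pentose phosphate pathway, 3277 ± 491 CPM. Acly, which makes cytosolic acetyl-CoA from citrate, had 5554, 3460, 2830 and 2194 CPM, and its highest library was 2.53-fold above its lowest. Lpl, the lipase that frees fatty acids from circulating lipoproteins, had 3494 ± 101 CPM and the libraries lay close together. Ucp1 ranked between 26 and 38 in counts and Cidea between 45 and 65.

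**Figure D1:**
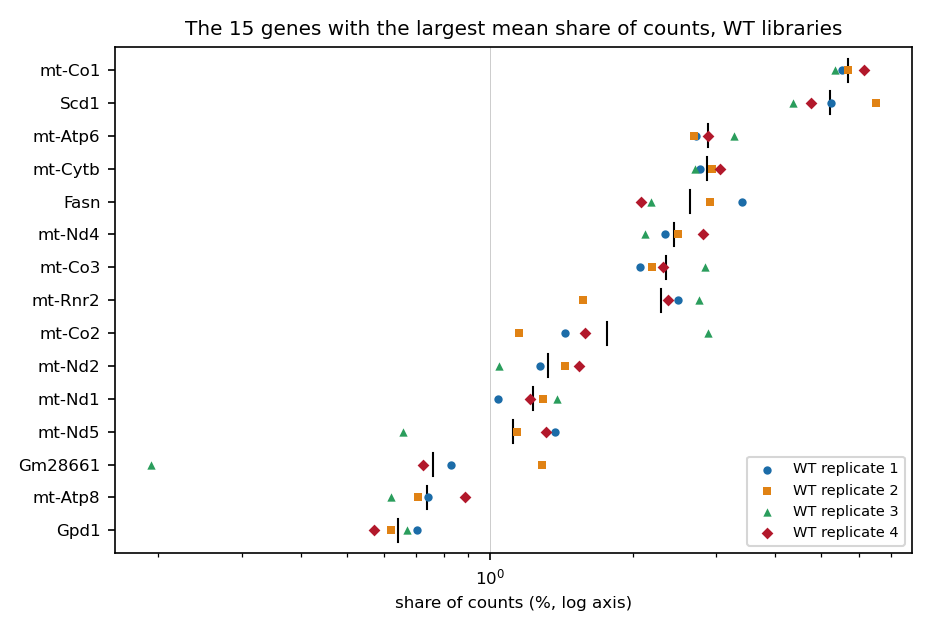
The 15 genes with the largest mean share of counts, with 1 symbol per WT library and a bar at the mean (x axis, share of counts in percent, log scale). Scd1 and Fasn are the nuclear genes in the upper 10 rows, and Gm28661 and mt-Co2 show the widest scatter, with WT replicate 3 at the low end for Gm28661 and at the high end for mt-Co2.

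Per length, the order of nuclear genes changed. Scd1 stayed at the top with 20607, 25624, 16104 and 17926 TPM, a mean of 20065 ± 4142. Fasn followed with 4562 ± 1209 TPM, then Gpd1 with 4066 ± 416 and Ucp1 with 3061 ± 433 TPM. Fasn was above Gpd1 in WT replicates 1 and 2 and below it in WT replicates 3 and 4, so their order is not fixed by these libraries. Cox6a1, a subunit of cytochrome oxidase, had 2895 ± 450 TPM, Fabp4 2548 ± 236, Cidea 2495 ± 382, Aldoa 2482 ± 269 and Cox8b 2415 ± 367 TPM. Thrsp, a nuclear protein that promotes fatty acid synthesis, stood at place 10 with 2038 ± 607 TPM. With the length of all exons, Ucp1 was above Cox6a1 in every library. From Cox6a1 to Thrsp, the order of each gene and the next changed between libraries, so that it is not fixed either. Of the 10 genes up to this place, the length used mattered most for Fabp4, whose annotated exons together span 4489 bases and whose APPRIS principal transcript spans 896. With principal transcripts Fabp4 reached 10689 TPM and place 2, Ucp1 had 2564 TPM and place 9, and Cidea had 2089 TPM and place 18. Scd1 kept place 1 with 17018 TPM, and Cox6a1, with 2981 TPM and place 7, stood above Ucp1. Of all nuclear TPM, Scd1 held 4.64% and Ucp1 0.713% with all exons, against 3.25% and 0.491% with principal transcripts.

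The mitochondrial genome supplied 25.3, 24.7, 27.2 and 27.8% of the counts. Its 13 protein-coding genes held 23.4% ± 1.16 of all counts and its 2 ribosomal RNAs 2.74% ± 0.623. Without WT replicate 4 the share of the whole genome was 25.7%. Per length it held 55.9, 54.9, 57.7 and 59.4% of the TPM with all exons. With principal transcripts it held 46.7, 46.0, 48.1 and 50.1%. The messenger RNAs are cut from long precursors of the mitochondrial DNA strands, yet levels per length differed between the genes. Levels are given per gene, not per messenger RNA. mt-Atp6, of ATP synthase, had 79397 TPM, mt-Co1 68958, mt-Atp8 67927, mt-Co3 56177, mt-Co2 48036 and mt-Cytb, of complex III, 47038 TPM. The place of mt-Co2 is uncertain, because Gm28661, a pseudogene with its sequence, had 21138 TPM. The genes for complex I lay lower, from mt-Nd4 with 33274 TPM down to mt-Nd5 with 11601 TPM, the lowest of the 13. mt-Nd5 had 13761, 11420, 6560 and 13154 CPM, and mt-Nd4l 3594, 3494, 1599 and 4049 CPM. Both were lowest in WT replicate 3. mt-Rnr2, the large ribosomal RNA, had 24878, 15716, 27549 and 23797 CPM and was lowest in WT replicate 2. Because polyadenylated RNA was selected, the level of ribosomal RNA here is not its level in the tissue.

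Some of the mitochondrial counts could not be placed with certainty. Gm28661, an unprocessed pseudogene all of whose 31-base sequences are also found in mt-Co2, had 8272, 12885, 1937 and 7219 CPM. mt-Co2 itself had 14441, 11546, 28812 and 15906 CPM, so that it was highest in the library where Gm28661 was lowest. Their sum was 22713, 24431, 30749 and 23125 CPM, a range of 1.35-fold. A further copy, Gm29216, shares 97.2% of its sequence with mt-Co1 and had 2337, 2008, 4671 and 1544 CPM. With such copies added, the mitochondrial share of the counts was 27.3% ± 1.19. Gm28437, a copy of mt-Co3, had 4.45, 410, 0 and 0 CPM and was thus counted almost only in WT replicate 2. Without that library its mean was 1.48 CPM.

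Nuclear subunits of the respiratory chain and ATP synthase held 3.25, 3.39, 3.75 and 3.21% of the counts. The 13 mitochondrial protein-coding genes had 6.91 ± 0.608 times as many counts. Complex I is the entry point for NADH, and the 37 genes listed as its nuclear subunits held 0.918% ± 0.0933, with a median of 267 TPM per gene. Ndufb9 led with 800 TPM, Ndufa1 had 676, and Ndufb2 was lowest with 23.6 TPM. The 37 include Ndufa4, with 737 TPM and 0.0544% of the counts, whose product is now placed in cytochrome oxidase. Complex II, succinate dehydrogenase, held 0.352% ± 0.0184 in 4 genes. Its flavoprotein subunit Sdha had 2242, 2317, 1758 and 2153 CPM and the highest level of the 4, 965 TPM. Complex III held 0.513% ± 0.0406 in 10 genes, led by Uqcr10 with 874 TPM and Uqcrfs1, the iron-sulphur subunit, with 846 TPM. The medians of complexes II and III were 593 and 599 TPM. Complex IV, cytochrome oxidase, held 0.567% ± 0.0811 in 14 of 17 listed genes, with a median of 480 TPM. The rest are counted in other classes, Cox8b and Cox7a1 among them with heat production. Of the 14, Cox6a1, Cox8a (1764 TPM) and Cox6b1 (1400 TPM) were highest. ATP synthase held 1.05% ± 0.0524 in 18 genes, with Atp5b at 1872 TPM and Atp5a1, the alpha subunit, at 1642 TPM. Its median of 198 TPM was below those of the other complexes, and the subunit c gene Atp5g1 was its lowest member with 4.34 TPM. Of the members with at least 10 CPM, 35 of 37 in complex I, 11 of 11 in complex IV and 10 of 17 in ATP synthase were highest in WT replicate 3 after TMM scaling, against 29.9% of all 8146 such genes.

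Fatty acid and triglyceride synthesis was the class with the largest share among nuclear genes. Its 42 measured members held 13.21, 13.11, 10.24 and 10.02% of the counts, a mean of 11.6% ± 1.76, and 12.2% ± 1.69 without WT replicate 4. Scd1 alone gave 44.8% ± 4.56 of this and Scd1 and Fasn together 67.4% ± 3.50, so that the class without Scd1 held 6.43% ± 1.17. Of the citrate route to fatty acids, Acly had 1256 ± 553 TPM. Slc25a1, the carrier that brings citrate out of the mitochondria, had 1124, 837, 1101 and 618 CPM. The acetyl-CoA carboxylases, which make malonyl-CoA, had 319 ± 87.2 TPM (Acaca) and 327 ± 74.8 TPM (Acacb). NADPH for the pathway comes from Me1 among others, which had 2003, 1037, 988 and 715 CPM, and from Pgd, which had 879, 469, 583 and 347 CPM. Both were highest in WT replicate 1 and lowest in WT replicate 4. For the step to triglyceride, Agpat2 had 1001 TPM and Dgat2 972 ± 138 TPM. Dgat2 had 1265, 1802, 1710 and 1619 CPM and was lowest in WT replicate 1. Pck1, which feeds glycerol synthesis in fat, had 2486, 2532, 2380 and 3546 CPM, with WT replicate 4 highest. At the other end of the class, Scd3 had 0.718 CPM and Pnpla5 0.238 CPM. Fads1 and Fads2, which desaturate polyunsaturated fatty acids, had 5.51 and 6.03 TPM, far below Scd1.

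Many lipogenic genes shared their highest and lowest libraries. Of 39 members with at least 10 CPM, 29 were highest in WT replicate 1 after TMM scaling, where 28.3% of all genes were, and 26 were lowest in WT replicate 4, where 22.5% of all genes were. Both held for 22 of the 39, against 7.33% of all genes. The median coefficient of variation (CV, the SD as a percentage of the mean) of the class was 23.0%, against 12.5% over all genes with at least 10 CPM. Elovl3, an elongase of saturated fatty acids known for its high level in brown fat, had 164, 89.4, 154 and 37.9 CPM. Scd2 had 544, 368, 384 and 145 CPM. Sterol synthesis followed a like pattern, with 15 of 24 members highest in WT replicate 1 and a median CV of 26.1%. Srebf1, which encodes a factor that switches on lipogenic genes, had 523, 341, 359 and 298 CPM, and Insig1, which holds that factor back, 664, 587, 580 and 432 CPM.

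Lipid storage and breakdown held 1.23% ± 0.0959 of the counts. Per length Cidea led the class, followed by Pnpla2, the first lipase of triglyceride breakdown, with 1592 TPM. Cidec had 920 TPM, G0s2, which inhibits Pnpla2, 786 TPM, and Ces1d 642 TPM. Plin1, the coat protein of the droplet, had 1249, 1111, 1022 and 1160 CPM and Lipe, hormone-sensitive lipase, 1434, 1162, 1211 and 1087 CPM. The highest library was 1.32-fold above the lowest for Lipe and 1.22-fold for Plin1. Uptake and binding of fatty acids held 1.52% ± 0.0865, and after Fabp4 its highest members were Dbi, which binds acyl-CoA (1208 TPM), Cd36, a fatty acid translocase (974 TPM), Lpl (626 TPM) and Fabp3 (552 TPM). Cd36 had 1903, 1777, 1860 and 1917 CPM.

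Fatty acid oxidation held 2.11% ± 0.0981 of the counts in 30 genes. Its members were abundant per length: Acaa2, a thiolase, had 1881 TPM, Acadl 1815 TPM and Acadvl 1430 TPM, both acyl-CoA dehydrogenases for long chains. Etfb, which passes their electrons on, had 960 TPM and Hadhb, of the trifunctional protein, 837 TPM. Acadvl had 2076, 2089, 2019 and 1999 CPM. The median CV of its members was 11.2%, near the 12.5% over all genes with at least 10 CPM. Cpt1b, which admits long-chain fatty acids to the mitochondria, had 420 ± 14.0 TPM, whereas the liver form Cpt1a was the lowest member with 4.53 TPM.

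The citric acid cycle and pyruvate dehydrogenase held 2.40% ± 0.162, with Pdha1 at 898 TPM, Mpc1, of the pyruvate carrier, at 794 TPM and Ogdh at 701 TPM. Pdk4, a kinase that shuts pyruvate dehydrogenase, had 752, 1394, 1078 and 1459 CPM and was lowest in WT replicate 1. Glucose uptake and glycolysis held 1.96% ± 0.213. Aldoa led per length, followed by Eno1 (1052 TPM), Gapdh (894 TPM), Pkm (701 TPM) and Ldha (682 TPM). The place of Gapdh is uncertain, because the processed pseudogene Gm7336 had 1069 TPM and shares 26.5% of the 31-base sequences of Gapdh. Hk2, the first enzyme of the pathway, had 1042, 452, 471 and 563 CPM, with WT replicate 1 highest. After TMM scaling, 16 of 28 members of the citric acid cycle class and 19 of 28 of the glycolysis class were highest in WT replicate 1, where 28.3% of all genes with at least 10 CPM were. The same held for 14 of 18 in lipid storage and breakdown, 18 of 30 in fatty acid oxidation and 17 of 23 in branched-chain amino acid breakdown. Breakdown of branched-chain amino acids, a fuel that brown fat takes up, held 0.480% ± 0.0561, and Bckdha led with 535 TPM.

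Genes of heat production and its regulators, with Cox8b and Cox7a1 among them, held 0.490% ± 0.0430 of the counts, of which Ucp1 gave more than any other. Cox8b and Cox7a1, isoforms of cytochrome oxidase known from brown fat and muscle, had 2415 and 691 TPM. Letmd1, an inner-membrane protein, had 208 TPM and Kcnk3, a potassium channel, 186 TPM. Kcnk3 had 401, 373, 388 and 414 CPM, close to equal in all libraries. Regulators were low beside their targets. Esrra had 72.7 TPM, the coactivators Ppargc1b and Ppargc1a 28.5 and 10.7 TPM, and Prdm16, which fixes brown fat identity, 3.73 TPM. Dio2, which activates thyroid hormone, had 127, 88.3, 65.4 and 131 CPM and was lowest in WT replicate 3. Fgf21 averaged 0.188 CPM and Bmp8b 0.505 CPM, each with 0 counts in WT replicate 4, where the floor allows up to 0.231 CPM.

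The adrenergic and cyclic AMP pathway held 0.533% ± 0.0401 of the counts. Adrb3, the beta-3 receptor, had 170, 195, 230 and 211 CPM. Among 9 adrenergic receptor genes it held 73.9% ± 2.91 of the TPM, ahead of Adrb1 with 7.06% and Adra1a with 6.88%. Gnas, the stimulatory G protein, had 1519, 1927, 2033 and 1977 CPM. Of 10 adenylyl cyclase genes, Adcy6 held 52.0% ± 1.68 of the TPM and Adcy3 27.1% ± 4.32. Adcy6 had 200, 241, 190 and 241 CPM. Adcy3 thus stood at 31.9 ± 8.42 TPM against 60.4 ± 8.13 TPM for Adcy6, and Adcy6 was above Adcy3 in every library. Adcy4 followed with 8.71%, and its share was 15.2% in WT replicate 3 against 6.04 to 7.30% in the others. Adcy8 was the lowest of the pathway per length, with 0.0365 TPM. Prkar2b, which encodes the RIIβ regulatory subunit of that kinase, had 545 TPM and held 86.5% ± 0.866 of the TPM of its 4 genes. Prkaca, a catalytic subunit of protein kinase A, had 218 TPM and Aqp7, a glycerol channel, 135 TPM.

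Among transcription factors of brown fat, Cebpa had 328 TPM, Cebpb 201, Mlxipl (ChREBP, a factor that responds to glucose) 156, Srebf1 127 and Pparg 110 TPM. Pparg had 169, 164, 176 and 182 CPM and varied little. Of the nuclear receptors, Pparg was highest, followed by the clock receptor Nr1d1 (87.7 TPM), Esrra and Nr1h3 (46.3 TPM). Ppara, the receptor that governs oxidation genes, had 42.5, 115, 47.4 and 121 CPM, with WT replicates 2 and 4 high and WT replicates 1 and 3 low. Its part of the TPM of the 3 PPAR genes was 15.4, 33.5, 16.4 and 32.5%. Of secreted proteins, Gpx3, an extracellular peroxidase, had 1078 TPM, Cfd (adipsin) 826, Adipoq (adiponectin) 743 and Apoe 460 TPM. Cfd had 529, 387, 279 and 421 CPM. Lep, the hormone of white fat, had 106, 63.7, 93.8 and 54.8 CPM, or 44.6 TPM. Vegfa, a growth factor of blood vessels, had 343, 354, 276 and 403 CPM. Slc2a4, the insulin-responsive glucose transporter, had 521, 381, 384 and 384 CPM and held 86.9% ± 1.48 of the TPM of 11 glucose transporter genes.

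Each of the classes described next held at most 0.877% of the counts. Cytosolic ribosomal proteins held 0.877% ± 0.115 in 82 genes, with Rplp1 highest at 613 TPM. Of 79 with at least 10 CPM, 67 were highest in WT replicate 3 after TMM scaling, against 29.9% of all genes of that level. Translation factors held 0.800% ± 0.0449, led by Eef1a1 (1501 TPM) with 0.1998% of the counts and Eef2 (574 TPM) with 0.102%, and 51.5% of the sequence of Eef1a1 is shared with other genes. Defence against oxidants and haem synthesis held 0.869% ± 0.0774, with Gpx4 at 1091 TPM, Gpx3 and the ferritin light chain Ftl1 at 995 TPM. Of the sequence of Ftl1, 64.1% is shared with other genes. Upkeep of mitochondria held 0.656% ± 0.0226 with a median CV of 9.18%, and of all classes complex II alone had a lower one, 7.29%. Its leading members were Hspa9 at 418 TPM and Coq8a, of coenzyme Q synthesis, at 317 TPM. Collagens and other matrix proteins held 0.489% ± 0.0669, led by Gsn (473 TPM) and Sparc (337 TPM). Of these genes, 26 of 37 were highest in WT replicate 3, against the same 29.9%. Chaperones held 0.496% ± 0.0532, mitochondrial carriers 0.443% ± 0.0233 and mitochondrial ribosomal proteins 0.351% ± 0.0334. Proteasome subunits held 0.279% ± 0.0221, insulin signalling 0.175% ± 0.0186 and histones 0.0678% ± 0.00536. All classes together held 58.6% ± 0.683 of the counts.

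**Figure D2:**
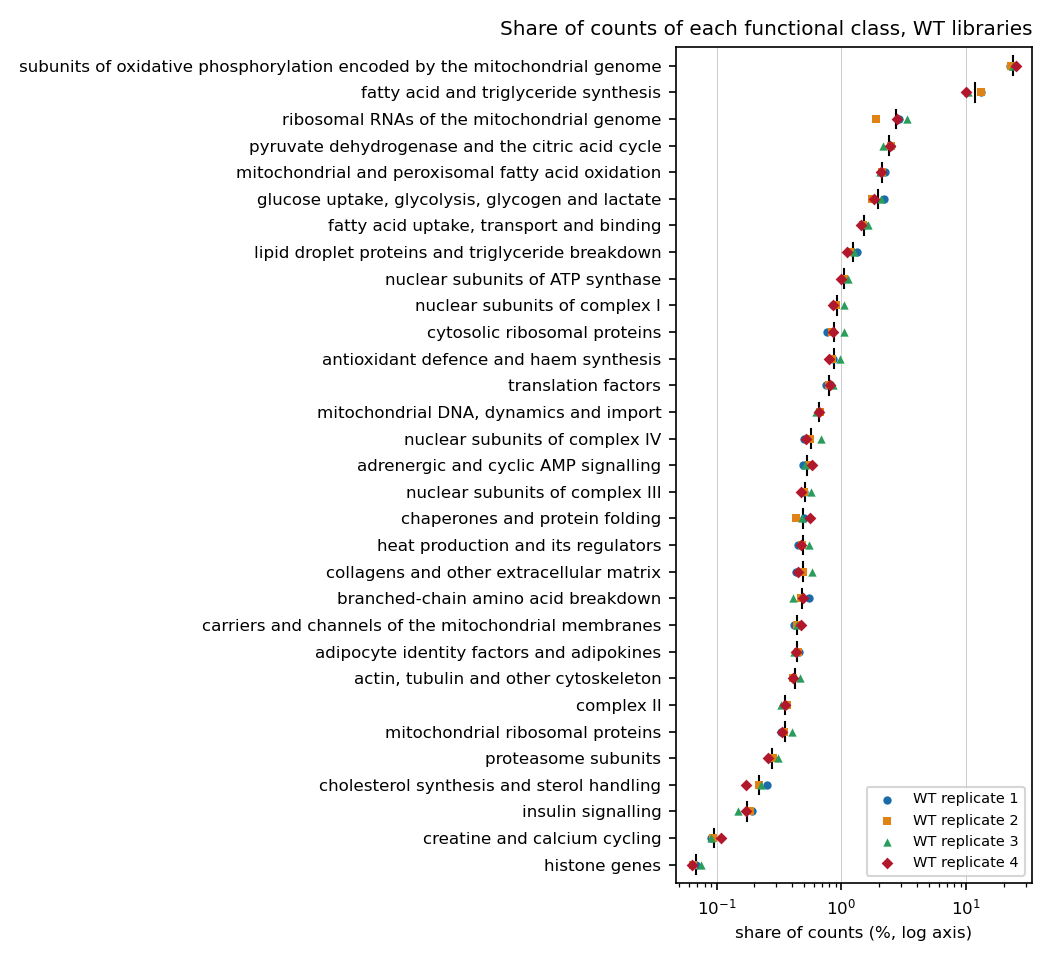
Share of counts of each functional class with a mean above 0.05%, with 1 symbol per WT library and a bar at the mean (x axis, percent, log scale). Mitochondrially encoded subunits (23.4%) and fatty acid and triglyceride synthesis (11.6%) lie far above the rest, and WT replicate 3 is the highest symbol for complex I, complex IV and both sets of ribosomal proteins.

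Within gene families, 1 member usually held most of the TPM. Of 34 families, 29 had the same leading member in all 4 libraries and 30 the same under all 4 definitions of length. Ucp1 held 98.2% ± 0.387 of the 3 uncoupling protein genes, Scd1 99.4% ± 0.290 of the desaturases, Cpt1b 98.8% ± 0.174 of its family and Aldoa 99.6% ± 0.236 of the aldolases. Hk2 held 94.1% ± 3.61 of the hexokinases, Dgat2 87.7% ± 2.17 of the 2 acyltransferases and Fabp4 80.5% ± 5.07 of the fatty acid binding proteins. Some families were shared. The cytochrome oxidase isoforms Cox8b and Cox8a held 57.7% and 42.3%, and Cox7a1, Cox7a2 and Cox7a2l 52.8%, 34.5% and 12.7%. Of the lactate dehydrogenases Ldha held 61.1% and Ldhb 38.9%, and of the perilipins Plin1 held 34.8%, Plin2 28.9%, Plin4 17.7% and Plin5 14.2%. Plin2 was ahead of Plin1 in WT replicate 3 alone, with 31.9 against 30.6%. Acaca and Acacb were level at 49.2% and 50.8% ± 1.43, and which of them led depended on the length used.

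In 5 families that include a form known from muscle, the balance differed between libraries. The muscle transcripts described next differed between the same libraries, and their part in these shares was not tested. Pfkl, the liver-type phosphofructokinase, held 84.6, 71.0, 82.1 and 53.3% of its family, and Pfkm, the muscle type, 10.5, 24.0, 12.7 and 43.0%. The calcium pump Atp2a1 held 5.21, 72.2, 41.7 and 88.6%, while Atp2a2 held 88.1, 25.6, 48.80 and 11.03%. Of creatine kinases Ckm held 20.1, 84.6, 62.2 and 83.8% and Ckb 77.4, 4.87, 32.5 and 1.76%. Slc25a5 led the adenine nucleotide translocases with 65.2, 59.3 and 61.1% in WT replicates 1 to 3, and Slc25a4 led with 51.9% in WT replicate 4. Eef1a1 held 94.9% in WT replicate 4 and at least 99.1% in the others. Without WT replicate 4 the means were 79.2% for Pfkl, 39.7% for Atp2a1 and 55.6% for Ckm. These families were picked after their values were seen.

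**Figure D3:**
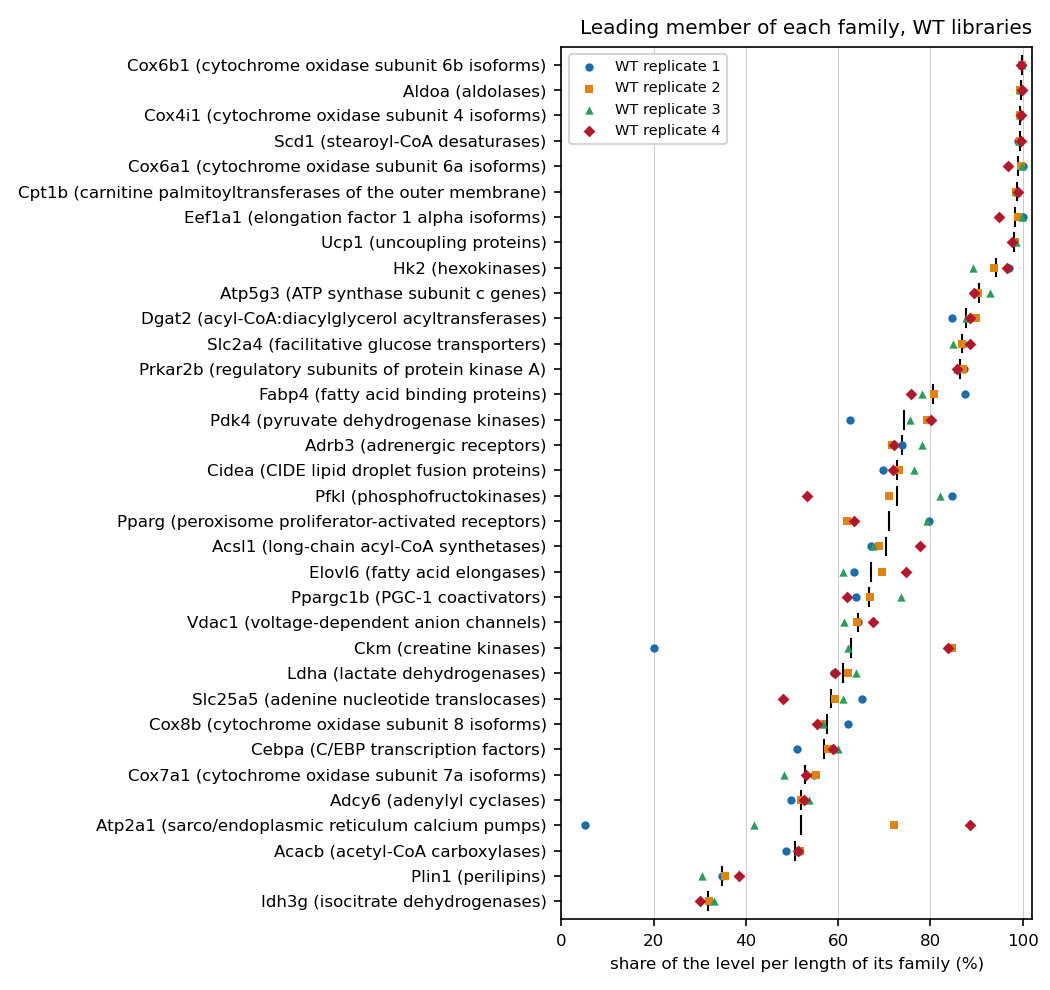
Share of the level per length that the leading member holds in each of 34 gene families, with 1 symbol per WT library and a bar at the mean (x axis, percent of the family's TPM). Symbols lie close together for most families, and those of Ckm, Atp2a1 and Pfkl are the most scattered, at 20.1 to 84.6%, 5.21 to 88.6% and 53.3 to 84.6%.

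Markers of other cell types were mostly low, but those of skeletal muscle differed widely between libraries. In bulk tissue fewer cells of a type and less RNA per cell cannot be told apart. The 20 skeletal muscle markers summed to 0.00857, 0.263, 0.0572 and 1.09% of the counts. All 20 were highest in WT replicate 4 after TMM scaling, against 25.45% of all genes with at least 10 CPM. The mean was 0.356%, and 0.110% without that library. Myh4, the myosin of fast fibres, had 9.83, 623, 108 and 2272 CPM. Acta1, skeletal actin, had 7.39, 341, 74.6 and 1413 CPM and Atp2a1 6.76, 373, 67.4 and 1718 CPM. Without WT replicate 4 their means were 247 CPM for Myh4, 141 CPM for Acta1 and 149 CPM for Atp2a1. WT replicate 1 was nearly free of these transcripts and WT replicate 2 held more than WT replicate 3. Endothelial markers summed to 0.111, 0.125, 0.184 and 0.119%. After TMM scaling, 15 of 15 with at least 10 CPM were highest in WT replicate 3, against 29.9% of all genes of that level. Cdh5, the cadherin of endothelial junctions, had 145, 172, 257 and 149 CPM. Red cell transcripts summed to 0.0832, 0.0583, 0.112 and 0.0627%, with Hbb-bs, a beta globin, at 390, 266, 490 and 280 CPM. Markers of mural cells held 0.0733% ± 0.0126, led by Rgs5 with 354 CPM. Fibroblast and progenitor markers held 0.0145%, macrophage markers 0.0143%, Schwann cell markers 0.0150% and lymphocyte markers 0.00240%. Of the 9 markers of keratinocytes and thymus, 3 (Krt15, Rag1 and Foxn1) had 0 counts in every library and the sum was 0.000312%.

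**Figure D4:**
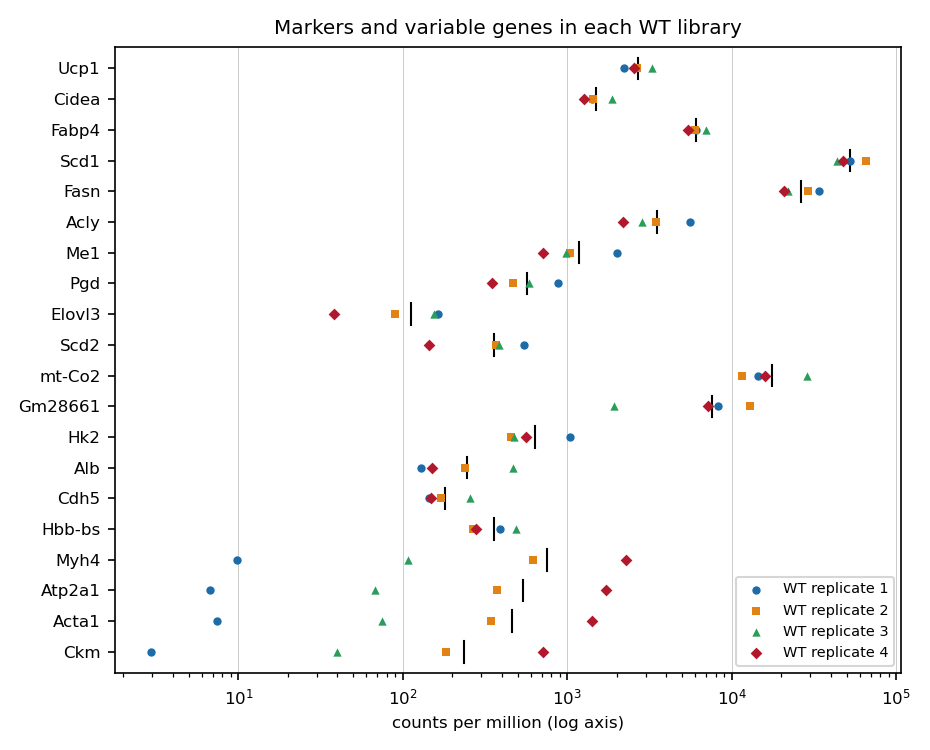
Level of 20 genes in each WT library, as markers of brown fat, lipogenic genes, the mt-Co2 pair and markers of other cells (x axis, CPM, log scale, with a bar at the mean). The symbols of Ucp1, Cidea and Fabp4 lie close together, while those of Myh4, Atp2a1, Acta1 and Ckm run from WT replicate 1 at the low end to WT replicate 4 at the high end.

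The spread between libraries was measured as the CV of TMM-scaled CPM over the 4 libraries, for 8143 genes with a mean of at least 10 CPM. Its median was 12.5%, where counting noise alone would give 4.30%, with the 10% and 90% points at 5.47 and 25.3%. In 452 genes (5.55%) the highest library was over 2-fold above the lowest, and in 2061 (25.3%) over 1.5-fold. Between pairs of libraries, Pearson's r of log2(CPM + 1) across 12445 genes was 0.965 to 0.984, and genes are not independent replicates. The 15 protein-coding genes with the largest CV among 2620 with at least 50 CPM included Myh7, Myh1, Tcap, Mb, Ttn, Mybpc1, Atp2a1, Neb, Ryr1, Acta1, Actn3, Tpm2, Tnnt3 and Ckm. All 15 are parts or enzymes of striated muscle, highest in WT replicate 4 and lowest in WT replicate 1, and 11 are on the muscle marker list. Myh7, the myosin of slow fibres, topped them with a CV of 185% and 2.23, 11.2, 7.65 and 334 CPM, with a mean of 7.03 CPM without WT replicate 4. The number of genes with a CV above 50% was 179, and 150 without WT replicate 4.

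At the other end, the 10 protein-coding genes with the smallest CV were Mrpl4, Il15ra, Add1, Lamp1, Arpc2, U2af2, Mrpl10, Pts, Rnf10 and Ttc7b, at 0.866 to 1.34%. Their CVs were below what counting noise gives for genes of their level (1.27 to 3.20%), so their order has no meaning at this depth. Lamp1, a lysosomal membrane protein with 364 CPM, was the most abundant of them.

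WT replicate 3 differed from the others along transcript length. Among genes of at least 10 CPM, its level relative to the mean of the other libraries had a median log2 ratio of 0.25 for 464 genes whose principal transcript is at most 1000 bases and 0.11 for 1497 genes of 1000 to 2000 bases. The median was -0.06 for 3139 genes of 2000 to 4000 bases, -0.21 for 2382 of 4000 to 8000 and -0.31 for 457 longer ones. In the other libraries the medians stayed between -0.11 and 0.11. Of the genes up to 1000 bases, 72.4% were highest in WT replicate 3, against 10.3% of those over 8000 bases. The median principal transcript was 908 bases in complex I, 878 in cytosolic ribosomal proteins and 659 in complex IV, the classes that were highest there, and 3150 in fatty acid and triglyceride synthesis. The part of length in the class differences was not tested. Adcy3, with a principal transcript of 4672 bases, was also lowest in this library. Ucp1, Cidea and Fabp4, all highest there, have principal transcripts of 1636, 1115 and 896 bases. That of Scd1, lowest there, spans 4832 bases, and that of Fasn, lowest in WT replicate 4, 10050 bases. The part of length in these marker levels was not tested. Without WT replicate 3 the median CV over all genes was 8.87%.

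**Figure D5:**
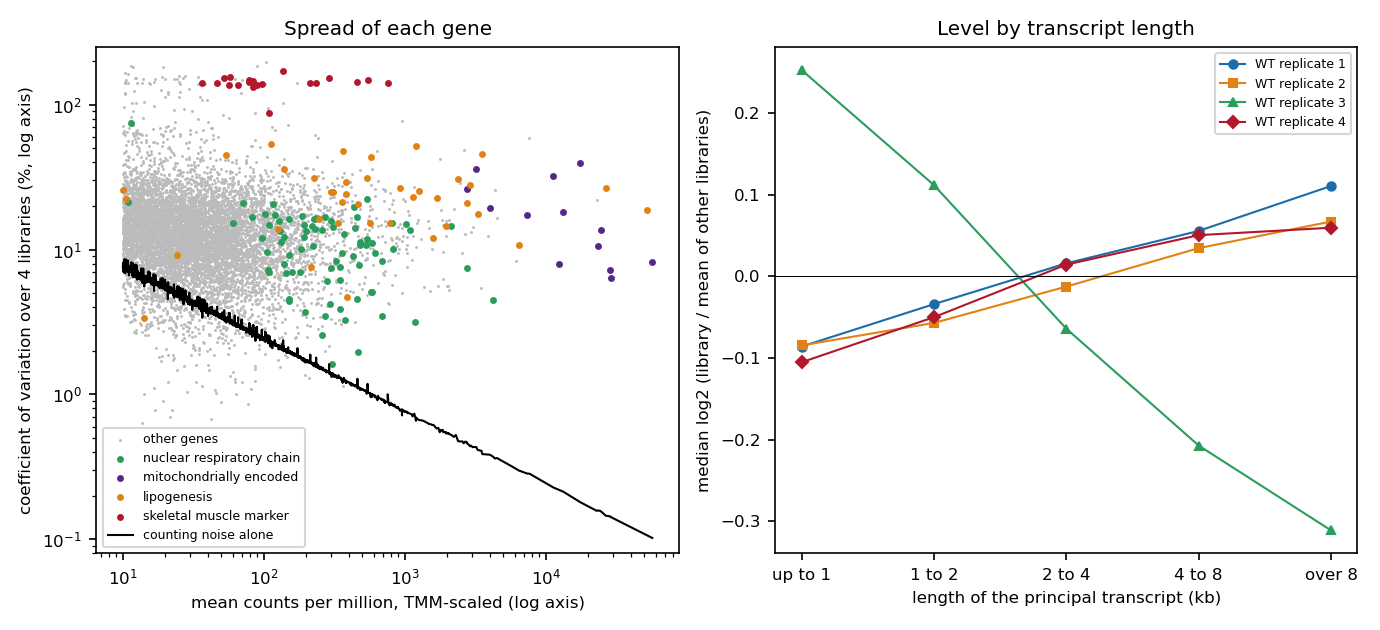
Left, CV over the 4 WT libraries against mean level for each gene with at least 10 CPM (both axes log), with the counting noise as a black line, and right, the median log2 ratio of each library to the mean of the others by length of the principal transcript. Skeletal muscle markers lie above the cloud near 100% or more, lipogenic genes in its upper part, and WT replicate 3 falls from 0.25 to -0.31 from short to long transcripts.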

How the data were processed

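RNA sequencing of brown fat gave 8 libraries, of which the 4 titled WT were used. The values deposited by the authors are estimated counts in 1 table of 54385 Ensembl genes. The submitters' processing notes name StringTie, Salmon, edgeR and the build GRCm38, with no versions. Annotation release, strand setting and filters were not given in the sources used here. An estimated count can be split between near-identical genes, whose values are therefore uncertain. Polyadenylated RNA was measured, per the series' design text.

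Counts were used unrounded for shares, CPM and TPM. GENCODE M21, on GRCm38, named 99.5% of the identifiers and gave exon lengths. CVs used TMM factors (0.953 to 1.05, edgeR 4.0.16, R 4.3.3), computed with Python 3.11.15. Counting noise was taken as the Poisson CV at each library's depth. Sequence sharing between genes was counted over 31-base sequences of the GENCODE transcripts. Library totals ran from 13.0 to 32.4 times 1000000. Each pair of libraries differed over 2-fold on the log2(CPM + 1) scale in 149 to 383 of 12445 genes that reached 1 CPM in every library, and none was treated as a duplicate.

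Each gene counts in 1 class only. The members and lists were chosen with earlier results of these data known. The rule for named genes took the 5 markers, the 25 most counted genes, up to 6 members with the highest level per length and the lowest of each list, every family member, the 15 most and 10 least variable coding genes of at least 50 CPM, and up to 4 markers per other cell type. Names beyond it (among them Me1, Pgd, Slc25a1, Srebf1, Dio2, Prdm16, Fgf21, Fads1, Fads2, Scd3 and the copies of mitochondrial genes) were picked once their values were known. Some genes that the rule takes are not reported here. The calculation of the CV and its counting noise was tested on simulated counts. Alternatives were other scalings, filters, lengths and denominators, and each library left out.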

Additional observations from a re-analysis of the deposited data

Results flagged for a closer look

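Across the 4 WT libraries, 231 sets of values were searched for a library whose gap to its nearest neighbour takes up more of the whole range than Dixon's 95% critical value for 4 values. Chance flags about 1 in 20 such sets, and the 15 found are near that rate. The sets include genes named after their values were seen, among them Hmox1, Lars2, Gm28437 and the most variable genes. Flags of such genes are no independent result. WT replicate 4 stood apart with 482 CPM of Myh1, 334 CPM of Myh7 and 3546 CPM of Pck1. WT replicate 3 was high with 297 CPM of Cox7a2, 719 CPM of Etfb, 204 CPM of Rplp1 and 0.547 CPM of Adcy8, which is near the floor. In the same library the cytoskeleton class was high with 0.467% of the counts and the fibroblast and progenitor markers with 0.0168%, and Ces1d was low with 709 CPM. WT replicate 1 was high with 54.9 CPM of Hmox1, 1950 CPM of Lars2 and 521 CPM of Slc2a4. WT replicate 2 was high with 410 CPM of Gm28437 and 0.672 CPM of Pnpla5.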

How the results depend on the processing

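The share of the mitochondrial genome was 25.7 to 26.8% with each library left out. It was 24.8% when only protein-coding genes and mitochondrially encoded subunits were counted and 27.3% with near-identical copies added. The number of genes holding 50% of the counts was 101 to 107.33 on average with each library left out, 414.5 among nuclear genes alone and 11.5 per length. The 10 most counted nuclear genes held 10.9 to 11.8% with each library left out and 15.4% of nuclear counts. Fatty acid and triglyceride synthesis held 11.1 to 12.2% with each library left out, 15.8% of nuclear counts, 4.25% per length and 6.43% without Scd1. The median CV was 8.87 to 13.6% with each library left out, the lowest without WT replicate 3, and 55.7% with no filter on low counts. It was 12.5% with DESeq2 size factors (version 1.42.0) and 12.6% with total counts. Genes detected in every library numbered 12533 to 12701 with 1 library left out, 12486 at equal depth and 16924 at 0.1 CPM. Of the 20 nuclear genes with the highest level per length, 18 to 20 stayed with each library left out, 16 with the longest transcript, 15 with the principal transcript and 11 with the mean over transcripts. Of 181 genes named, 23 moved over 1.5-fold in mean without some library, 16 of them without WT replicate 4. Those were the muscle genes and Atp5g1, which had 7.40 CPM without it. Without WT replicate 1, Hmox1 had 8.70, Lars2 599, Bmp8b 0.221 and Fgf21 0.118 CPM. Pnpla5 had 0.0928 CPM without WT replicate 2 and Adcy8 0.0360 CPM without WT replicate 3. The principal transcript, the copies added to the mitochondrial share, the class without Scd1, the genes with little shared sequence and the order of genes per length with a library left out were alternatives chosen after seeing the data. Other denominators, lengths and filters changed what was counted by construction. The cause of the shifts with a library left out was not tested. No paired analysis was possible because the results come from no test and only the WT libraries were used. At this depth, genes at or under the floor of 3 counts per library cannot be ordered.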

Other observations

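Several transcripts outside the classes differed between libraries. Transcripts of proteins that the liver secretes summed to 0.105, 0.114, 0.175 and 0.0867% of the counts in WT replicates 1 to 4. After TMM scaling, 11 of 13 with at least 10 CPM were highest in WT replicate 3, against 29.9% of all genes of that level. The others were Trf, highest in WT replicate 2, and Orm1, highest in WT replicate 1. Alb, serum albumin, had 129, 239, 469 and 150 CPM, and Ahsg, another plasma protein, had 10.6, 22.1, 43.5 and 11.3 CPM. Hp, haptoglobin, which fat also makes, had 506, 386, 610 and 420 CPM and was the most counted of the listed transcripts in every library. The predicted gene Gm10800 followed the same order as Alb, with 121, 245, 446 and 123 CPM. It was listed among transcripts with ribosomal RNA or satellite sequence, and whether such sequence drew its counts was not tested.

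Hmox1, which breaks down haem under stress, had 54.9, 6.65, 9.52 and 9.94 CPM and was high in WT replicate 1 alone. Lars2, a mitochondrial leucyl-tRNA synthetase, had 1950, 478, 607 and 714 CPM, and CT010467.1, annotated as ribosomal RNA, had 2671, 1026, 1735 and 1589 CPM, both highest in the same library. Lars2 and CT010467.1 were listed among transcripts with ribosomal RNA or satellite sequence. Whether the counts of Lars2 come from its messenger RNA or from such sequence was not tested. Car3, a carbonic anhydrase known from fat and muscle, had 1548, 2627, 1904 and 3126 CPM. Of the nuclear long noncoding RNAs, Malat1 had 3286, 1782, 2423 and 2261 CPM and Neat1 822, 880, 771 and 930 CPM.

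Transcripts of the Y chromosome were found in every library. Ddx3y had 105, 92.2, 78.1 and 99.1 CPM, while Xist, which marks the inactive X chromosome, had 1.63, 2.91, 5.91 and 1.54 CPM. The sex of the mice is not given in the labels. These genes were chosen after their values were seen, and what moves them was not tested.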
